A study of Mus musculus with 11 samples.

Results

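PRDM3 and PRDM16 are zinc-finger proteins that recruit transcriptional corepressors and histone-modifying enzymes to DNA. The genes of that machinery were followed here in fetal mouse lung epithelium in which both genes were targeted for deletion. The set holds 54 genes, chosen by symbol, out of 24421 rows in the count table: corepressors, methyltransferases that act on H3K9, H3K27 and other histone lysines, readers of methylated H3K9, lysine demethylases, histone deacetylases and subunits of the nucleosome remodelling and deacetylase complex NuRD. All 54 were found and all 54 passed the filter on low counts, which kept 13916 genes. One of them, Setd8, now carries the symbol Kmt5a.

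Bulk RNA sequencing was done on EpCAM+ cells, which are epithelial, collected on microbeads from E17.5 lungs, with polyA-enriched RNA. The PRDM3/16KO group had 5 libraries, from mice with floxed Prdm16 and Prdm3 alleles recombined by ShhCre, a Cre at the Shh locus that is active in lung epithelium. The Control group had 6 libraries. The breeding scheme in the labels crossed Prdm3 fl/fl Prdm16 fl/wt ShhCre+ males with Prdm3 fl/fl Prdm16 fl/fl females. Every embryo of that cross is Prdm3 fl/fl and carries a floxed Prdm16 allele. A Control embryo of that cross with ShhCre would thus have Prdm3 targeted too. The labels do not give the alleles or the Cre status of the Control libraries. Nor do they say whether libraries came from separate embryos, so p-values measure the spread between libraries, which may be in part technical. KO stands below for PRDM3/16KO.

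Library totals ran from 7286156 to 7652477 counts in KO and from 6065906 to 7869787 counts in Control. Of 6 epithelial markers (Epcam, Cdh1, Krt8, Krt18, Nkx2-1 and Cldn18), all were detected, and their summed level was 5297 to 5769 CPM in KO and 5939 to 6828 CPM in Control. CPM is a gene's count relative to the library total, after composition factors were applied by edgeR's TMM method. Counts over the whole of the targeted genes are a weak check of the deletion, because transcripts without the deleted exons are still counted: Prdm16 averaged 166 ± 12.2 CPM in KO and 202 ± 21.9 CPM in Control, and Mecom, the present symbol of Prdm3, 340 ± 16.0 CPM in KO and 219 ± 9.99 CPM in Control (SD, n = 5 and 6). By edgeR's test Prdm16 was called lower (log2 fold change -0.28) and Mecom higher (0.64). The cause of the Mecom increase was not tested. Markers of cell types moved with genotype. The summed level of 8 genes typical of surfactant-producing alveolar type 2 cells was 2380 to 3616 CPM in KO and 6877 to 12227 CPM in Control, and all 8 were called lower by edgeR. Summed over 8 neuroendocrine genes the level was 573 to 714 CPM in KO and 28.9 to 55.5 CPM in Control, and over 10 mesenchymal genes 405 to 743 CPM in KO and 253 to 426 CPM in Control. In whole-population RNA, a change in the number of cells of a type and a change in RNA per cell cannot be told apart. The part of these cell types in the values below was not tested. The mean log2 (CPM + 1) of the mesenchymal markers was used as a covariate in an alternative fit. It was 4.25 to 5.07 in KO and 3.47 to 4.26 in Control. The covariate thus goes largely with genotype, and that fit cannot separate the mesenchymal level from genotype.

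Histone tails carry acetyl and methyl groups that mark active and silent chromatin. CtBP proteins are recruited by PRDM3 and PRDM16 and bring deacetylases, H3K9 methyltransferases and the demethylase LSD1. The H3K9 methyltransferases write a mark of silent chromatin that HP1 proteins read, Polycomb repressive complex 2 (PRC2) writes H3K27 methylation, and NuRD couples deacetylation to nucleosome remodelling. Class IIa deacetylases shuttle between nucleus and cytoplasm and act largely as scaffolds for transcription factors and corepressors.

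The largest change of the set was in a class IIa gene, and the members of that class moved apart. Hdac9 and Hdac4 were higher and Hdac5 was lower in KO, while Hdac7 did not pass the test. The sequences upstream of their transcription starts are shown for the class IIa members in the RefSeq table of start sites; Hdac5 has no window there. Each line holds 250 bases before a RefSeq start site (GRCm38.p6, minus strand, 5′ to 3′), with CG dinucleotides in capitals. The windows lie at chr12:34917096-34917345 for Hdac9, chr1:92180342-92180591 for Hdac4 and chr15:97844503-97844752 for Hdac7, and hold no annotated exon base. The Hdac9 and Hdac7 starts coincide with the first base of the gene in GENCODE M21; the Hdac4 start lies 15358 bases inside it.
Hdac9: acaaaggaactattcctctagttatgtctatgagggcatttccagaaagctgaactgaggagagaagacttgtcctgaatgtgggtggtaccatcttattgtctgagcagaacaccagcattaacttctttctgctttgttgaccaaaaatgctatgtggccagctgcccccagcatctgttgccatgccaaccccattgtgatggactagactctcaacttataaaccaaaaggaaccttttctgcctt
Hdac4: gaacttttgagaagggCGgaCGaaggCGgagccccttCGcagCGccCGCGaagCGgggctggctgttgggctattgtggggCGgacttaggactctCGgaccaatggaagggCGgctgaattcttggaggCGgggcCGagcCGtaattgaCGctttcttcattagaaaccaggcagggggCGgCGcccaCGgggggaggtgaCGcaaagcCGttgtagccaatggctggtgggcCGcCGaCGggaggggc
Hdac7: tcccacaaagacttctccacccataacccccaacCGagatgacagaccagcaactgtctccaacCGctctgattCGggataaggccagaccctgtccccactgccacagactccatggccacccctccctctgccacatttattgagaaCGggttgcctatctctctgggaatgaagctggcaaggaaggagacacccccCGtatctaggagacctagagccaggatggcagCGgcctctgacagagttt
For each gene the window shown was that with its start nearest the GENCODE gene start. The 30 bases from its start site also had to lie in a transcript of the gene, as for 55 of the 63 member windows. Other start sites of these genes were not described. The Hdac9 window held 0 CG dinucleotides, the Hdac4 window 23 and the Hdac7 window 6. Over the 63 windows of the 43 members in the RefSeq table the median was 21, against 6 over all 32851 windows. None of the 3 windows held CTCAAG or CAAGTG, short cores of NKX2-1 sites, on either strand. These letters occurred in 22.6% of all windows; counted per gene, they were in a window of 25.3% of all genes in the table and of 7 of the 43 members (16.3%). A match describes letters only and is no evidence of binding.

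Across the set, most transcripts stayed close to their Control level. Of 54 genes, 6 were higher and 8 were lower in KO by edgeR's quasi-likelihood test at an adjusted p under 0.05, and 40 did not pass. That is 25.9% called, where 42.9% of all 13916 genes were called (21.1% higher and 21.8% lower); among the 10628 genes in the same range of mean level, 6.79 to 361 CPM, it was 43.3%. The median log2 fold change was 0.02, against 0.0023 over all genes. The median size of the change was 0.14 on the log2 scale, against 0.24 over all genes and 0.21 over those in the same range. Library ranges of the groups did not overlap for 8 members, 4 higher and 4 lower, where 28.5% of all genes were apart. Only 6 members passed with an absolute log2 fold change of at least 0.5, or 11.1%, where 24.0% of all genes did. The 95% interval of the log2 fold change lay within 0.5 either way, a 1.41-fold change, for 37 of the 40 members not called, and within 0.3, a 1.23-fold change, for 24. With library size as the only scaling, the calls in the set became 15 higher and 3 lower, the median of all genes moved to 0.11, and 65.6% of all calls were higher, against 49.2% with TMM.

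**Figure D1:**
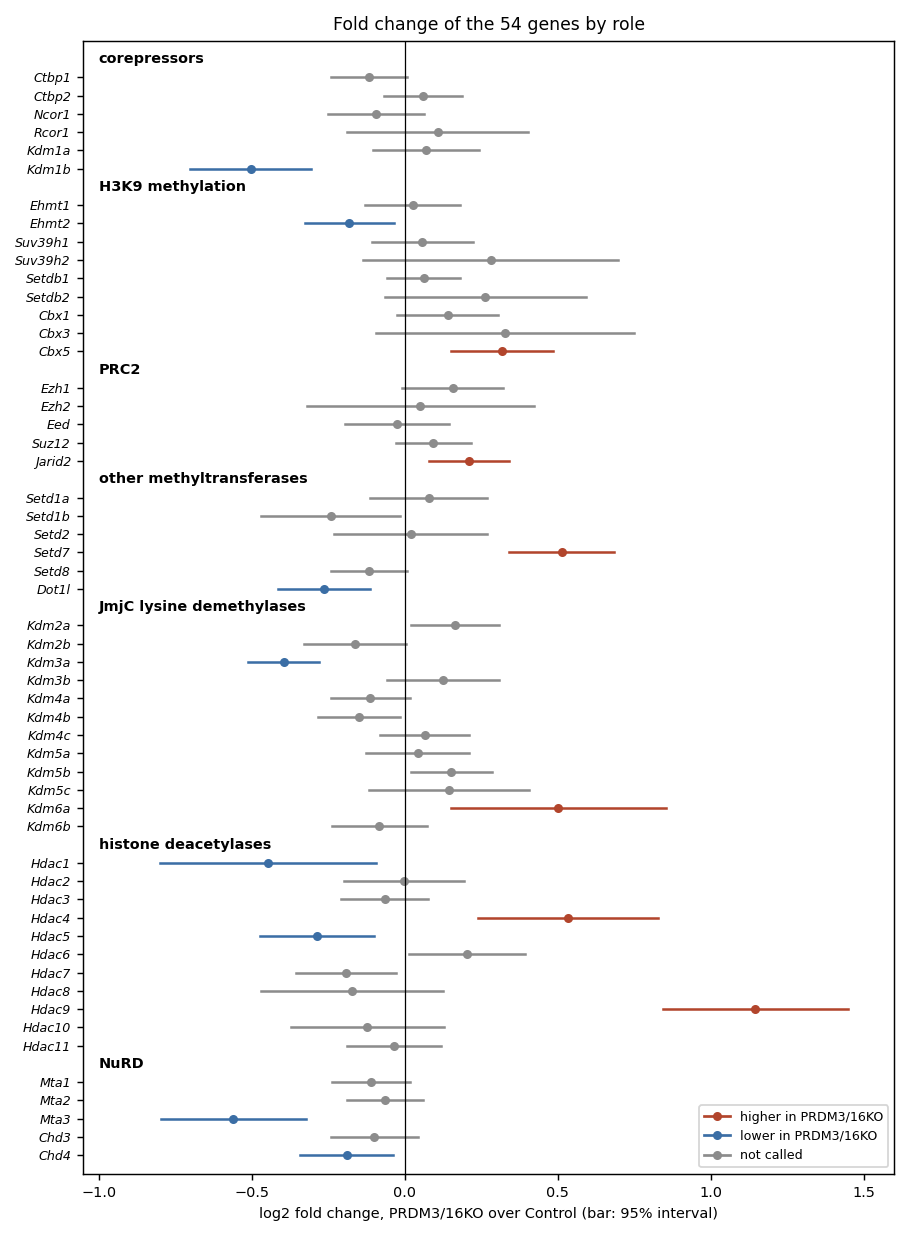
Log2 fold change of each of the 54 genes, PRDM3/16KO over Control, grouped by role, with bars for the 95% interval; red and blue mark genes called higher (6) and lower (8) by edgeR and grey marks the 40 not called. Hdac9 stands alone above 1, and most other genes lie within 0.3 of 0.

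**Figure D2:**
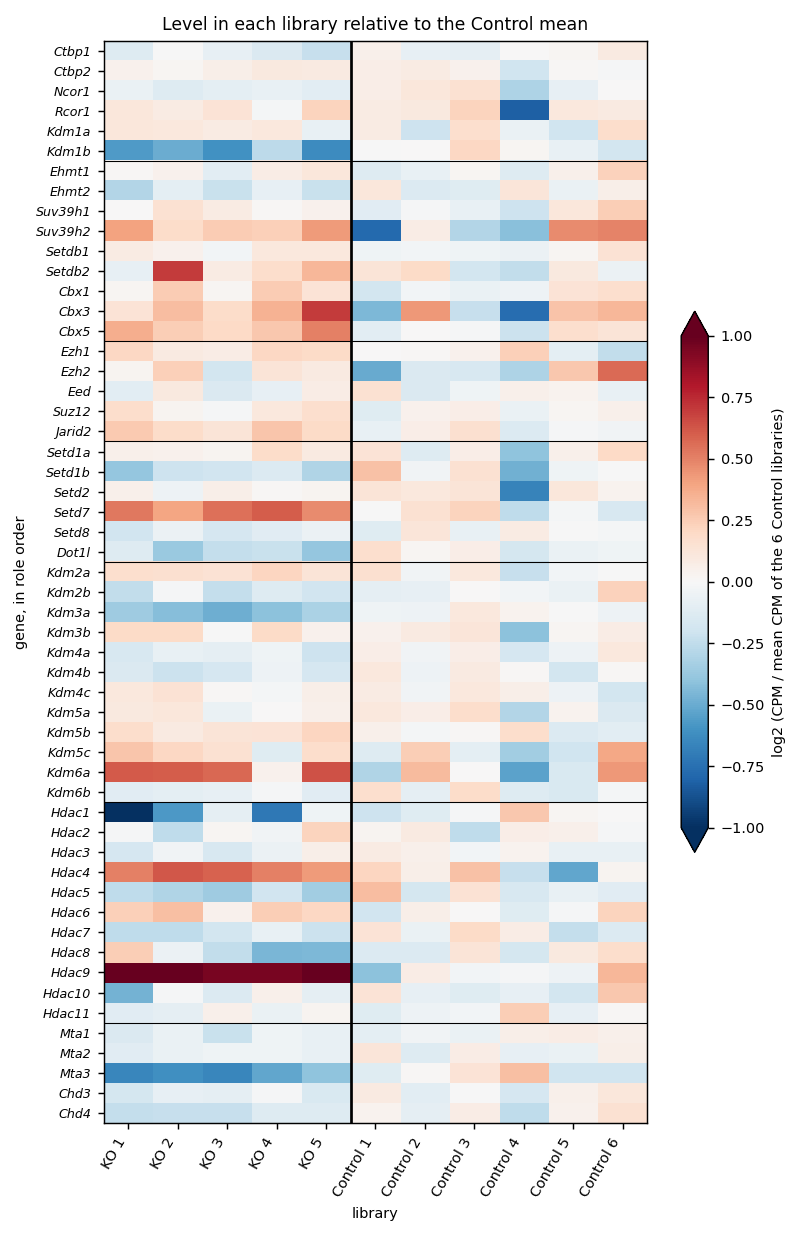
Level of each gene (rows, in role order) in each library (columns, KO left of Control) as log2 of CPM over the mean CPM of the 6 Control libraries, with colours saturating at 1 either way. Hdac9, Setd7, Kdm3a, Kdm1b and Mta3 differ in all 5 KO libraries, and Control library 4 is low for Rcor1, Setd2 and Kdm3b.

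Among deacetylases, Hdac9 (chromosome 12, 34047580 to 34917095) showed the largest change of the set. It was counted at 11.01, 11.04, 9.09, 9.13 and 12.5 CPM in KO libraries 1 to 5 and at 3.55 to 5.93 CPM in Control, with a median of 4.66. Every KO library was above every Control library. The mean was 10.5 ± 1.43 CPM in KO and 4.72 ± 0.765 CPM in Control (SD, n = 5 and 6), which is 1.15 on the log2 scale (SE 0.14, adjusted p = 9.31e-06 by edgeR). Hdac9 passed in all 25 alternatives tried, with log2 fold changes of 0.99 to 1.248. Hdac9 and Hdac4 were the 2 least abundant members per length of exon: Hdac9 had 0.719 CPM per kb in KO and 0.322 CPM per kb in Control, and Hdac4 had 0.631 and 0.436.

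Hdac4 (chromosome 1, 91928779 to 92195699), the class IIa relative next to it in level, was counted at 9.81, 10.6, 10.4, 9.78 and 9.25 CPM in KO libraries and at 4.82 to 8.47 CPM in Control, with a median of 7.12. The groups did not overlap. Its log2 fold change was 0.53 (SE 0.14; edgeR, adjusted p = 0.00548), on means of 9.97 ± 0.546 CPM in KO and 6.90 ± 1.35 CPM in Control. The Hdac4 call was lost in the libraries with high Y-linked transcripts, described below, where the log2 fold change was 0.52 (adjusted p = 0.381, with 1 KO library), and with the mean level of mesenchymal markers as a covariate (0.48; edgeR, adjusted p = 0.14). Exons of an antisense gene overlap 22.4% of the Hdac4 exon bases, and the strand setting of the counting is not given in the sources used here.

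Hdac5, another class IIa gene, moved the other way, at 59.99 ± 2.82 CPM in KO and 73.3 ± 10.4 CPM in Control (log2 fold change -0.29; edgeR, adjusted p = 0.0156), with ranges that did not overlap. The Hdac5 call was lost with library-size scaling (-0.18; edgeR, adjusted p = 0.0887), with the Y-linked covariate (-0.21; adjusted p = 0.0784), in both sets divided by Y-linked transcripts (-0.175 with adjusted p = 0.136 where they were low, and -0.27 with adjusted p = 0.451 where they were high) and with the mesenchymal covariate (-0.32; adjusted p = 0.124). Hdac7, known for its part in endothelial and lymphoid cells, had a log2 fold change of -0.19 (interval -0.36 to -0.03; edgeR, adjusted p = 0.057). It passed without Control library 5 (-0.24), Control library 6 (-0.22) or KO library 4 (-0.22), with adjusted p from 0.0179 to 0.0457 by edgeR. Hdac7 also passed with Control libraries 5 and 6 left out together (-0.28, edgeR, adjusted p = 0.00266).

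The class I enzymes are the catalytic core of corepressor complexes. Hdac2, Hdac3 and Hdac8 did not pass. Hdac2 and Hdac3 had log2 fold changes of -0.0017 (interval -0.20 to 0.19) and -0.07 (-0.21 to 0.07), and Hdac8 had -0.17 (-0.47 to 0.12). Hdac1 was called lower, at 13.4, 19.4, 27.3, 17.6 and 28.1 CPM in KO libraries and 25.0 to 34.8 CPM in Control (log2 fold change -0.45; edgeR, adjusted p = 0.0403). KO libraries 3 and 5 lie inside the Control range. The call was lost without any one of Control libraries 2 to 6 or KO libraries 1, 2 and 4, with log2 fold changes of -0.32 to -0.47 and adjusted p from 0.0501 to 0.0976. In all, the Hdac1 call was lost in 15 of the 25 alternatives. Among them were library-size scaling (-0.34, adjusted p = 0.123 by edgeR) and the Y-linked covariate (-0.455, adjusted p = 0.0803 by edgeR). Annotated pseudogenes share 71.1% of the Hdac1 transcript at 95% identity or more, so the counting could split its reads, and Hdac1 is an uncertain value. Of the remaining classes, Hdac6 (0.20; edgeR, adjusted p = 0.076), a cytoplasmic tubulin deacetylase, passed without Control library 6 (adjusted p = 0.0247) or KO library 3 (adjusted p = 0.0499). Hdac10 (-0.12), a polyamine deacetylase, and Hdac11 (-0.03), the class IV enzyme, did not pass.

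**Figure D3:**
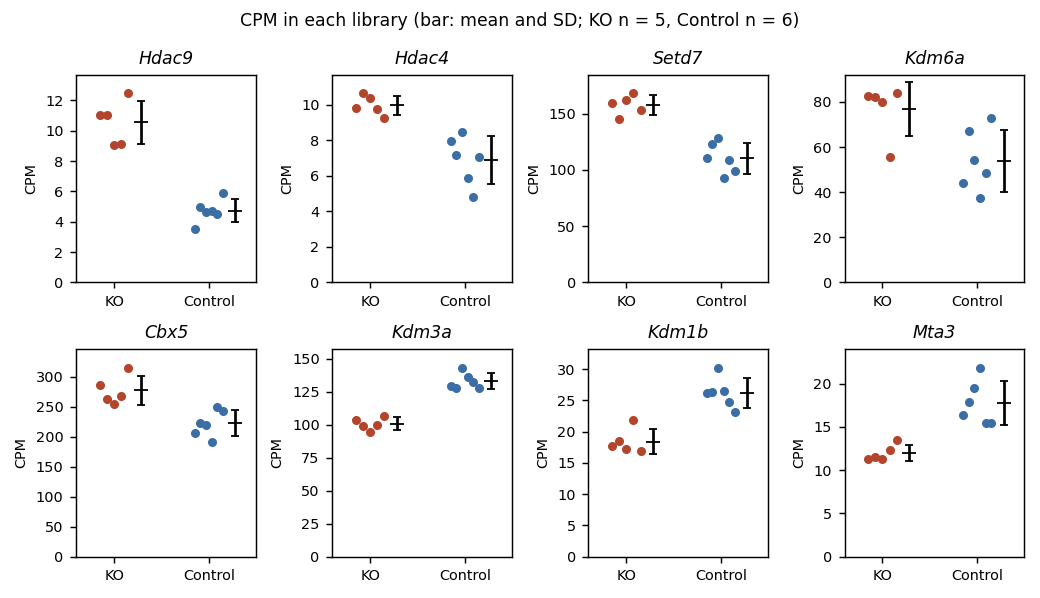
CPM in each library for 8 members called by edgeR, with PRDM3/16KO (n = 5) left of Control (n = 6) and the mean and SD beside the points; each axis starts at 0. The groups are apart for every gene shown except Kdm6a, whose lowest KO library, at 55.6 CPM, falls among the Control libraries.

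Among corepressors, the direct partners of PRDM3 and PRDM16 were close to the Control level. Ctbp1 (chromosome 5, 33247723 to 33274994) was counted at 186, 202, 192, 183 and 173 CPM in KO libraries and at 191 to 216 CPM in Control, with a median of 204. Ctbp2 (chromosome 7, 132987563 to 133124354) was counted at 74.1, 72.8, 74.9, 76.8 and 76.5 CPM in KO libraries and at 62.6 to 76.1 CPM in Control, with a median of 73.3. The groups overlapped for both. The log2 fold changes were -0.12 for Ctbp1 (interval -0.24 to 0.01; edgeR, adjusted p = 0.122) and 0.06 for Ctbp2 (-0.07 to 0.19; edgeR, adjusted p = 0.454). Per length of exon, Ctbp1 was the more abundant, at 41.9 CPM per kb in KO and 45.4 in Control, against 12.1 and 11.6 for Ctbp2. With library size as the only scaling Ctbp2 passed (0.17; edgeR, adjusted p = 0.0499).

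The scaffolds Ncor1, of nuclear receptor repression, and Rcor1, of the CoREST complex, had log2 fold changes of -0.10 (interval -0.25 to 0.06) and 0.11 (-0.19 to 0.40). Rcor1 in Control library 4 was 44.7 CPM, against 83.5 to 91.8 CPM in the other Control libraries and 77.7 to 91.9 CPM in KO. Without that library Ncor1 passed, at -0.15 (edgeR, adjusted p = 0.0367). Of the paired amine-oxidase demethylases that remove H3K4 methylation, Kdm1a, which encodes LSD1, had a log2 fold change of 0.07 (interval -0.10 to 0.24). Kdm1b, which encodes LSD2 (chromosome 13, 47043499 to 47085279), was lower, at 17.6, 18.5, 17.2, 21.9 and 16.9 CPM in KO libraries and 23.1 to 30.2 CPM in Control, with a median of 26.2. Every KO library was below every Control library. The means were 18.4 ± 2.03 CPM in KO and 26.2 ± 2.36 CPM in Control, a difference of -0.50 on the log2 scale (SE 0.093, adjusted p = 0.000419 by edgeR). Exons of Dek, on the other strand, overlap 9.19% of the Kdm1b exon bases. The Kdm1b call was lost among libraries with high Y-linked transcripts (-0.31; edgeR, adjusted p = 0.365) and with the mesenchymal covariate (-0.35; edgeR, adjusted p = 0.0949).

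Of the 6 H3K9 methyltransferase genes, 1 was called, where 42.9% of all genes were. Ehmt1 and Ehmt2 encode GLP and G9a, which make H3K9 mono- and dimethylation. Ehmt1 had a log2 fold change of 0.03 (interval -0.13 to 0.18) and Ehmt2 of -0.18 (edgeR, adjusted p = 0.0428), at 84.0 ± 5.41 CPM in KO and 95.4 ± 7.69 CPM in Control with overlapping ranges. The Ehmt2 call was lost without any one of Control libraries 1, 4 and 6 or KO libraries 1, 2, 3 and 5 (-0.15 to -0.19; edgeR, adjusted p from 0.063 to 0.111). In all, the Ehmt2 call was lost in 16 of the 25 alternatives. Among them were library-size scaling (-0.08, adjusted p = 0.405 by edgeR) and the Y-linked covariate (-0.15, adjusted p = 0.135 by edgeR). Setdb1, which silences endogenous retroviruses, had 0.06 (-0.06 to 0.18), and Setdb2 had 0.26 (-0.06 to 0.59). The trimethylating enzymes Suv39h1 and Suv39h2 had 0.06 (-0.11 to 0.22) and 0.28 (-0.14 to 0.70).

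Of the HP1 genes, whose proteins bind methylated H3K9, Cbx5 (HP1 alpha; chromosome 15, 103191544 to 103239816) was higher, at 278 ± 23.8 CPM in KO and 223 ± 21.7 CPM in Control (log2 fold change 0.32, SE 0.078; edgeR, adjusted p = 0.0041). Its ranges, 255 to 315 CPM in KO and 192 to 249.6 CPM in Control, did not overlap. Cbx1 (HP1 beta) had 0.14 (interval -0.03 to 0.31) and Cbx3 (HP1 gamma) had 0.33 (-0.09 to 0.75), and neither passed. Both passed with the level of proliferation markers as a covariate, described below. Cbx3 shares 33.2% of its transcript with other annotated genes, 7 of them pseudogenes, and is uncertain. The Cbx5 call was lost in both sets divided by Y-linked transcripts (0.26 with adjusted p = 0.0996 where they were low, and 0.29 with adjusted p = 0.354 where they were high, by edgeR) and with the mesenchymal covariate (0.30; edgeR, adjusted p = 0.122).

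In PRC2, 1 of 5 genes passed, 20% where 42.9% of all genes did. Jarid2, which helps target the complex, was higher, at 112 ± 4.80 CPM in KO and 97.3 ± 7.26 CPM in Control (log2 fold change 0.21; edgeR, adjusted p = 0.0125), with overlapping ranges. The core subunits Eed and Suz12 had -0.03 (interval -0.20 to 0.14) and 0.09 (-0.03 to 0.22). Of the alternative catalytic subunits, Ezh1, the one typical of resting cells, was the more abundant per length of exon, at 8.32 CPM per kb in KO and 7.48 in Control, against 1.35 and 1.28 for Ezh2. Ezh1 had a log2 fold change of 0.16 (-0.01 to 0.32; edgeR, adjusted p = 0.117) and Ezh2 of 0.05 (-0.32 to 0.42; edgeR, adjusted p = 0.841). Ezh1 passed without Control library 4 (0.21; edgeR, adjusted p = 0.0194). The Jarid2 call was lost in both sets divided by Y-linked transcripts (0.17 with adjusted p = 0.146 where they were low, and 0.28 with adjusted p = 0.316 where they were high) and with the mesenchymal covariate (0.28; edgeR, adjusted p = 0.0576).

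Several of these genes moved with proliferation markers among the Control libraries. The 14 proliferation markers (among them Mki67, Top2a and Cdk1) summed to 377 to 517 CPM in KO and to 254 to 460 CPM in Control libraries 1 to 4, but to 721 and 1009 CPM in Control libraries 5 and 6. Control libraries 5 and 6 differed in other markers too. Their alveolar type 2 sums were 8498 and 6877 CPM, against 10225 to 12227 CPM in Control libraries 1 to 4. Their sums over 8 immune genes were 275 and 162 CPM, against 489 to 785 CPM. Mesenchymal sums overlapped. Which of these differences goes with the genes below was not tested. Suv39h1 stood at 75.6 and 82.9 CPM in libraries 5 and 6 and at 60.7 to 69.3 CPM in the other 4 Control libraries. Ezh2 was 11.5 CPM on average in libraries 5 and 6 and 7.10 CPM in the other 4, and Suv39h2 10.7 and 6.10 CPM. Ezh1 ran the other way, at 49.5 CPM in libraries 5 and 6 and 58.7 CPM in the other 4. Without libraries 5 and 6, Suv39h2 passed as higher in KO (log2 fold change 0.61, edgeR, adjusted p = 0.00626), as did Cbx1 (0.22, adjusted p = 0.0282). Ezh2 had 0.33 in that fit and did not pass (edgeR, adjusted p = 0.0633). With the proliferation level as a covariate, Suv39h2 passed (0.41, edgeR, adjusted p = 0.0169), as did Cbx1 (0.16, adjusted p = 0.0494) and Cbx3 (0.42, adjusted p = 0.0346). Ezh2 had 0.16 with that covariate and did not pass (edgeR, adjusted p = 0.262). No other test of the part of proliferation in these values was made.

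**Figure D4:**
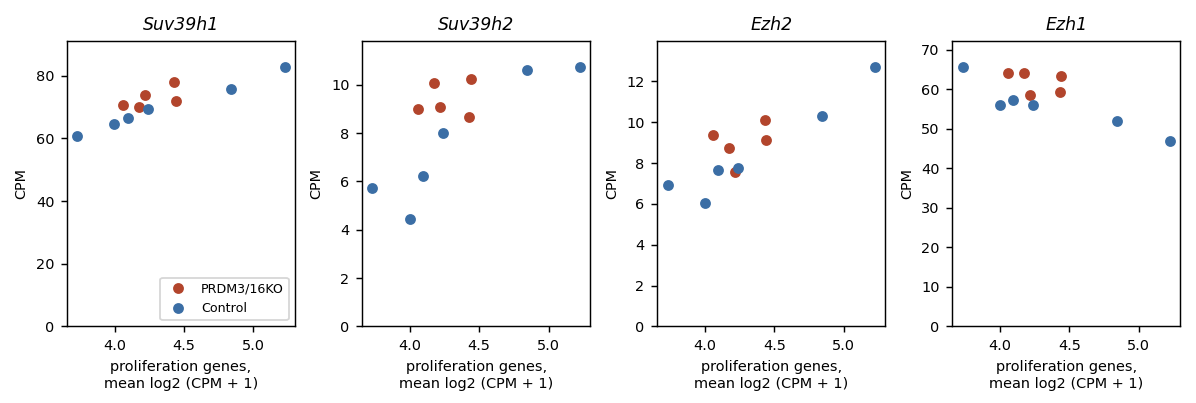
CPM of Suv39h1, Suv39h2, Ezh2 and Ezh1 in each library against the mean log2 (CPM + 1) of 14 proliferation markers; red points are the 5 PRDM3/16KO libraries and blue points the 6 Control libraries. The rightmost Control points are libraries 5 and 6, where Suv39h1, Suv39h2 and Ezh2 are the highest of the Control libraries and Ezh1 the lowest.

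Among the methyltransferases of other lysines, Setd7 (chromosome 3, 51515319 to 51560879), which places monomethyl groups on H3K4 and on non-histone proteins, was higher. It was counted at 159, 145, 162, 168 and 153 CPM in KO libraries and at 92.7 to 129 CPM in Control, with a median of 109.6. Every KO library was above every Control library. The means were 157 ± 8.77 CPM in KO and 110.4 ± 13.7 CPM in Control, a difference of 0.51 on the log2 scale (SE 0.081, adjusted p = 0.000101 by edgeR). Like Hdac9 it passed in all 25 alternatives, with log2 fold changes of 0.47 to 0.62. Dot1l, the only known H3K79 methyltransferase, was lower, at 159 ± 11.8 CPM in KO and 191 ± 15.8 CPM in Control (-0.26; edgeR, adjusted p = 0.0068), with overlapping ranges. The Dot1l call was lost with library-size scaling (-0.16; edgeR, adjusted p = 0.0647), in both sets divided by Y-linked transcripts (-0.27 with adjusted p = 0.0553 where they were low, and -0.24 with adjusted p = 0.451 where they were high) and with the mesenchymal covariate (-0.30; adjusted p = 0.0788).

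The catalytic subunits of the SET1 complexes, which place H3K4 trimethylation at promoters, did not pass: Setd1a had a log2 fold change of 0.08 (interval -0.11 to 0.27) and Setd1b of -0.24 (-0.47 to -0.01; edgeR, adjusted p = 0.0802). Setd1b passed without Control library 4 (-0.32; edgeR, adjusted p = 0.00278), where it was 67.1 CPM against 91.2 to 115 CPM in the other Control libraries. Exons of other annotated genes overlap 52.3% of the Setd1a exon bases, so Setd1a is uncertain. Setd2, which trimethylates H3K36 behind the polymerase, had 0.02 (-0.23 to 0.27); it was 174 CPM in Control library 4 and 283 to 303 CPM in the other 5. Setd8, which monomethylates H4K20, had -0.12 (-0.24 to 0.01).

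The JmjC demethylases use oxygen, iron and 2-oxoglutarate. Of 12, Kdm3a was lower and Kdm6a higher, 16.7% called where 42.9% of all genes were. Kdm3a, an H3K9 demethylase also known as a hypoxia-inducible gene (chromosome 6, 71588972 to 71632990), ranged from 94.6 to 107 CPM in KO and from 128 to 143 CPM in Control. The means were 101 ± 4.67 CPM in KO and 133 ± 5.99 CPM in Control, a difference of -0.40 on the log2 scale (SE 0.055, adjusted p = 2.77e-05 by edgeR). Kdm3a kept its call with the mesenchymal covariate (-0.39; edgeR, adjusted p = 0.00661) and lost it only among the libraries with high Y-linked transcripts (-0.45; edgeR, adjusted p = 0.0775). Its paralog Kdm3b had 0.12 (interval -0.06 to 0.31).

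Kdm2a (0.16, edgeR, adjusted p = 0.0612) and Kdm2b (-0.16, adjusted p = 0.107), which bind unmethylated CpG and act on H3K36, did not pass. Kdm2a passed without Control library 1 (edgeR, adjusted p = 0.025) or Control library 3 (adjusted p = 0.0491), and by DESeq2's Wald test (0.16, adjusted p = 0.0466). Kdm4a (-0.11), Kdm4b (-0.15) and Kdm4c (0.06), of the H3K9 and H3K36 family, did not pass either; without Control library 4 Kdm4a passed (-0.14; edgeR, adjusted p = 0.0439), and without Control library 5 Kdm4b passed (-0.18; edgeR, adjusted p = 0.0224). Of the H3K4 demethylases, Kdm5a had 0.04 (interval -0.13 to 0.21) and Kdm5b 0.15 (edgeR, adjusted p = 0.0585). Kdm5b passed without Control library 4 or KO library 2 (both 0.19, edgeR, adjusted p = 0.00971 and 0.0316). It also passed by DESeq2's Wald test (0.15, adjusted p = 0.0397). The H3K27 demethylase Kdm6b had -0.08 (-0.24 to 0.07).

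Kdm6a and Kdm5c are X-linked demethylases of H3K27 and H3K4 that are known to escape X inactivation in the mouse. Kdm6a (chromosome X, 18162575 to 18279936) was counted at 82.5, 82.1, 80.2, 55.6 and 83.8 CPM in KO libraries 1 to 5 and at 37.3 to 72.7 CPM in Control, with a median of 51.3. KO library 4 lay within the Control range. The log2 fold change was 0.50 (SE 0.16; edgeR, adjusted p = 0.0232), on means of 76.8 ± 11.9 CPM in KO and 53.96 ± 13.7 CPM in Control. The call was lost without KO library 1 (0.48), 2 (0.49) or 5 (0.47), with adjusted p from 0.0505 to 0.0528, and with the mesenchymal covariate (0.38; edgeR, adjusted p = 0.351). Kdm5c (chromosome X, 152233020 to 152274535) was counted at 370, 352, 339, 281 and 345 CPM in KO libraries and at 240.1 to 399 CPM in Control, with a median of 282, and did not pass (0.14, interval -0.12 to 0.40; edgeR, adjusted p = 0.373).

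Both followed the Y-linked and Xist transcripts of the libraries. The sum of Ddx3y, Eif2s3y, Kdm5d and Uty was 212 CPM in KO library 4 and 203 to 231 CPM in Control libraries 1, 3, 4 and 5, and at most 5.18 CPM in the other 6. Kdm6a was 80.2 to 83.8 CPM in the 4 KO libraries with low Y-linked transcripts, against 67.2 and 72.7 CPM in the Control libraries with low levels. Where they were high it was 55.6 CPM in KO library 4, against 37.3 to 54.2 CPM in 4 Control libraries. The Kdm6a log2 fold change was 0.22 among low-Y libraries (edgeR, adjusted p = 0.0585), 0.26 among high-Y libraries (adjusted p = 0.489, with the lone KO library assumed to vary like the rest) and 0.27 with the Y-linked level as a covariate (adjusted p = 0.0277). Kdm5c had -0.12 (adjusted p = 0.326), 0.06 (adjusted p = 0.867) and -0.03 (adjusted p = 0.784) in the same 3 fits. The high-Y group holds 1 of 5 KO and 4 of 6 Control libraries, so the fold changes without this term mix genotype with the Y-linked level. For Suv39h1, Hdac6 and Hdac8, the other X-linked members, low-Y and high-Y libraries overlapped. Hdac6 was 23.0 CPM in KO library 4 and 19.98 to 23.9 CPM in the other KO libraries, but in Control it was 20.2 and 22.7 CPM in the low-Y libraries and 17.05 to 19.5 CPM in the high-Y ones. Hdac8 was 7.98 CPM in KO library 4 and 8.02 to 13.0 CPM in the other KO libraries, and its Control libraries overlapped.

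**Figure D5:**
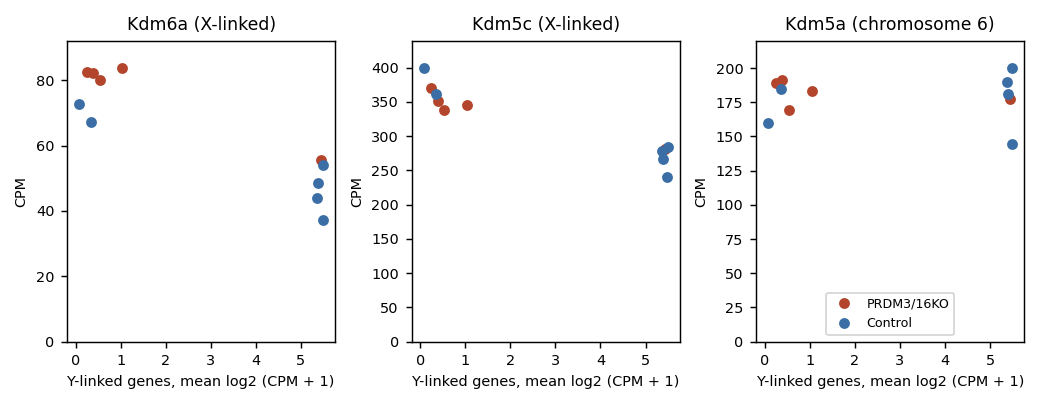
CPM of the X-linked Kdm6a and Kdm5c and of the autosomal Kdm5a in each library against the mean log2 (CPM + 1) of 4 Y-linked genes; red points are PRDM3/16KO and blue points Control. For Kdm6a and Kdm5c every low-Y library lies above every high-Y library; the high-Y set holds 1 PRDM3/16KO library, at 55.6 CPM for Kdm6a, against 54.2 CPM in the highest Control library there.

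In NuRD, 2 of 5 members, Mta3 and Chd4, were lower. That is 40% called, near the 42.9% of all genes. Mta3, the scaffold subunit first described in estrogen-dependent epithelial cells (chromosome 17, 83706163 to 83821516), was counted at 11.3, 11.6, 11.3, 12.4 and 13.4 CPM in KO libraries and at 15.4 to 21.8 CPM in Control, with a median of 17.1. The groups did not overlap. The means were 11.98 ± 0.931 CPM in KO and 17.7 ± 2.55 CPM in Control, a difference of -0.56 on the log2 scale (SE 0.11, adjusted p = 0.000791 by edgeR) and the largest decrease of the set. The Mta3 call was lost among high-Y libraries (-0.57; edgeR, adjusted p = 0.19) and with the mesenchymal covariate (-0.47; edgeR, adjusted p = 0.0822). The more abundant paralogs had -0.11 (Mta1, interval -0.24 to 0.02) and -0.06 (Mta2, -0.19 to 0.06).

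The remodelling ATPase Chd4 averaged 212 ± 8.21 CPM in KO and 242 ± 23.5 CPM in Control (-0.19; edgeR, adjusted p = 0.042). Its ranges overlapped, and the call was lost without any single library other than Control libraries 2 and 4 (edgeR, adjusted p from 0.0532 to 0.136). In all, the Chd4 call was lost in 18 of the 25 alternatives. Among them were library-size scaling (-0.09, adjusted p = 0.408 by edgeR) and the Y-linked covariate (-0.19, adjusted p = 0.0782 by edgeR). Chd3 had -0.10 (-0.24 to 0.04).

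Per length of exon, the 4 most abundant members were Kdm5c (47.4 CPM per kb in KO and 42.9 in Control), Ctbp1, Chd3 (41.3 and 44.2) and Kdm6b (38.6 and 40.9); Kdm5c led in KO and Ctbp1 in Control. The 6 members called with the largest changes were not among these: Hdac9 and Hdac4 were the lowest of the 54 in both groups, and Mta3 (2.25 in KO and 3.33 in Control) and Kdm1b (3.35 and 4.76) were low too, with Kdm6a (9.16 and 6.44) and Setd7 (14.6 and 10.2) between.

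Further chromatin genes, outside the set, were counted in the same fit. Of 104 listed, 103 were tested, and 16 were higher and 17 lower, 32.0% where 42.9% of all genes were called, with a median log2 fold change of -0.01. In Polycomb complexes, of 22 further subunits 4 rose and 4 fell, 36.4% called against 42.9% of all genes. The histone-binding Rbbp7 (0.38) and the ubiquitin ligase Rnf2 (0.31) rose, and the PRC1 subunit Pcgf2 (-0.31) fell. Cbx6 (-0.00039) and Phc3 (-0.09) did not pass. In the list of KMT2 complexes and further lysine methyltransferases, 4 of 20 rose and 1 fell, 25% called against 42.9% of all genes. Smyd2 (0.61), Suv420h2 (0.29), Smyd3 (0.42) and Wdr5 (0.22) were higher, and Nsd1 (0.07) and Setd5 (0.08) were not called. Of 8 further demethylases tested, Kdm7a fell (-0.35) and none rose, 12.5% called against 42.9% of all genes. The 8 include Kdm5d and Uty, used above for the Y-linked level, which varied between libraries within each group. Jmjd1c (-0.18) and Phf2 (0.13) did not pass.

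Among 17 further corepressors 3 rose and 2 fell, 29.4% called where 42.9% of all genes were. The Groucho family moved apart. Tle3 rose to 238 ± 17.8 CPM in KO, against 163 ± 10.9 CPM in Control (0.54, edgeR, adjusted p = 7.27e-06). Tle4 rose (0.32) and Tle2 fell (-0.39). Phf21a, of the LSD1 complex, rose (0.19), and Zfp217 (0.15) did not pass. Of 11 further NuRD and SIN3 subunits, 4 fell and none rose, 36.4% called where 42.9% of all genes were: Suds3 (-0.26), Sap130 (-0.24), Sap30 (-0.38) and Mbd3 (-0.22) fell, and Gatad2a (0.07) and Sin3a (0.13) did not pass.

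On the acetylating side, 2 of 10 acetyltransferases rose and 3 fell, a share near the 42.9% of all genes, and the paralogs Kat2a, encoding GCN5 (0.56; edgeR, adjusted p = 0.000557), and Kat2b, encoding PCAF (-0.35; adjusted p = 0.00725), moved apart. Kat6b rose (0.41) and Kat5 fell (-0.29), while Kat6a (0.04) and Ep300 (-0.07) did not pass. Of 7 sirtuins, NAD-dependent deacylases, the mitochondrial Sirt4 (0.32) and Sirt5 (0.42) rose, the nuclear Sirt1 (-0.32) fell, and Sirt2 (-0.15) and Sirt7 (-0.0034) did not pass; the share called, 42.9%, equals that of all genes. In DNA methylation, Dnmt3b fell (-0.53) and Tet3 rose (0.19) among 8, 25% called against 42.9% of all genes. Dnmt3a (0.07) did not pass.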

How the data were processed

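The authors deposited a single table of raw counts per gene symbol for 11 libraries, with 24421 rows. Per the submitters' processing notes, reads were handled with HTSeq 2.0, Picard 2.18.22, Bowtie2 2.4.2, Trim Galore 0.4.2, SAMtools 1.10.0, FastQC and DESeq2 on build mm10, with no roles stated. The annotation and the strand setting are not given in the sources used. Rows with a date in place of a symbol, or a repeated symbol, numbered 27; they stayed in the totals and the tests and hold no member.

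Counts were filtered with edgeR's filterByExpr, scaled by TMM and tested with edgeR 4.0.16 in R 4.3.3 (quasi-likelihood F-test, robust, two-sided, Benjamini-Hochberg adjustment over 13916 genes, threshold 0.05). Fold changes are KO over Control, and SE is the unshrunk coefficient over the square root of F. Intervals are 95%. Low or high Y-linked level was divided at a mean log2 (CPM + 1) of 3. Positions, exon lengths and overlaps come from GENCODE M21, and shared sequence from BLAST 2.17.0 (95% identity, at least 100 bases). The fit was also run on simulated counts with few genes changed, up or down at random. That setting differs from these data, where 42.9% of genes were called, so it does not test the scaling. The members, lists and alternatives were chosen with earlier results of these data known. All 54 members are named, and from each further list up to 4 called genes by adjusted p and up to 2 abundant genes not called; some genes of these lists are not reported here by name. Values of each KO library, with the range and median of Control, are given for members called with an absolute log2 fold change of at least 0.5, for Kdm5c, Ctbp1 and Ctbp2, and, chosen after their values were seen, for Hdac1. No 2 libraries of a group agreed within counting noise (chi-square per degree of freedom 3.14 to 26.7).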

Additional observations from a re-analysis of the deposited data

Results flagged for a closer look

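In 10 of the 108 sets of library values (54 genes in 2 groups), 1 library stood far from the rest of its group. Chance alone gives about 1 in 20 independent sets. These sets share the same libraries and are not independent, so their count cannot be set against that rate. Control library 4 was low for Rcor1 at 44.7 CPM (83.5 to 91.8 in the other Control libraries), Setd2 at 174 CPM (283 to 303), Kdm3b at 151 CPM (202 to 217) and Ctbp2 at 62.6 CPM (71.3 to 76.1), and high for Hdac11 at 64.7 CPM (50.1 to 55.0). Control library 6 was high for Kdm2b at 37.2 CPM (29.8 to 31.8), and Control library 3 was low for Hdac2 at 21.1 CPM (25.1 to 26.8). In KO, library 4 was low for Kdm6a at 55.6 CPM (80.2 to 83.8), and it is the KO library with high Y-linked transcripts; it was high for Kdm6b at 282 CPM (263 to 268). KO library 5 was low for Kdm1a at 65.8 CPM (73.1 to 74.5).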

How the results depend on the processing

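Each gene was refitted under 25 alternatives. Of the 14 called members, 2 (Hdac9 and Setd7) kept their call in all 25, 10 kept it with any 1 library left out, and no call reversed. Of the 40 not called, Kdm5b and Hdac6 passed in 7 of the 25, Kdm2a and Hdac7 in 6, and no other in more than 3. The members called were 6 higher and 8 lower in the fit reported. They became 15 and 3 with library size only, 10 and 5 with upper-quartile factors, 7 and 5 with no filter on low counts, 12 and 10 with the proliferation covariate, 6 and 4 with the Y-linked covariate and 2 and 1 with the mesenchymal covariate. They were 3 and 4 among low-Y libraries (4 KO and 2 Control) and 2 and 1 among high-Y libraries (1 KO and 4 Control), which are smaller. Over all genes, 2936 higher and 3037 lower became 1932 and 1821 among low-Y libraries, 869 and 933 among high-Y libraries and 1535 and 1526 with the mesenchymal covariate, and 3992 and 2095 with library size only. With 1 library left out, members ran from 5 to 8 higher and from 5 to 9 lower, and genes from 2644 to 3120 higher and from 2620 to 3269 lower. The share of all genes called also moved from the 42.9% of the fit reported. It was 43.7% with library size only, 42.8% with upper-quartile factors and 33.1%, of 19503 genes, with no filter on low counts. It was 50.0% with the proliferation covariate, 36.15% with the Y-linked covariate and 22% with the mesenchymal covariate. Of all calls, 57.9% were higher with upper-quartile factors, against 49.2% in the fit reported. The cause of these shifts was not tested.

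With the replicate number as a block, 8 members were higher and 7 lower. The numbers are not known to pair libraries: same-numbered deviations correlated at -0.061 to 0.27, and only KO library 5 correlated best with its own number. DESeq2 1.42.0 called 8 members higher and 8 lower, and limma-voom (3.58.1) 6 and 8. The share of all genes called was 44.6% with the block, 33.15% of 19503 genes by DESeq2 and 43.1% by limma-voom. Whether depth limits members of low level was not tested.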
